A study of Mus musculus with 6 samples.

Results

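The genes described here are 32 members of the p53 pathway: the transcription factor gene Trp53, genes whose proteins hold p53 in check, and established p53 target genes of growth control, DNA repair and cell death. They were taken by symbol and matched to NCBI gene numbers. All 32 had a gene number, 31 of them were among the 16749 genes listed in at least 1 library, and Eda2r, which encodes a death receptor of the ectodysplasin family, was listed in none. The 31 listed members all met the minimum of 1 FPKM in at least 3 of the 6 libraries and were tested. FPKM, a count of fragments scaled by transcript length and library size, is a level per transcript length and is the scale of every level given here.

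The p53 protein is a tetrameric transcription factor that is short-lived in unstressed cells, because the ubiquitin ligase MDM2 marks it for destruction. DNA damage activates the kinases ATM and ATR, which free p53 from MDM2, so its activity is set mainly at the protein level and is usually read from its target genes. In T cells these targets include inhibitors of the cell cycle, of mTOR and Akt signalling and inducers of apoptosis. Several of them also answer to other signals, such as NF-kappaB for Gadd45b or glucocorticoids for Ddit4.

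Bulk RNA was sequenced from flow-sorted CD8+ T cells of the iLN (the submitters' abbreviation) of C57BL/6 mice. The series title says that the animals carried tumors and had been given oxaliplatin, a platinum drug that crosslinks DNA, and this holds for both groups. There were 3 WT libraries (Id2f/f, a floxed Id2 gene with no Cre) and 3 knockout libraries (Cd4creId2f/f, the same floxed gene with Cre under the Cd4 promoter, which is active in T cells from the thymus onward). Id2 blocks the DNA binding of E protein transcription factors, and the comparison asks how its loss alters CD8+ T cells in treated animals. Age, tumor type, dose and time after treatment are not given in the labels, and no untreated group is analysed here, so the response to the drug itself cannot be read from these values. Cre and loss of Id2 cannot be told apart, and nothing in the labels says that the libraries of a group came from separate animals, so p-values measure the spread between these libraries, which may be technical.

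Library depth ranged from 7699181 to 8495123 expected counts. Id2 stood between 146.76 and 370.98 FPKM in WT and between 1.67 and 2.64 FPKM in knockout, as the labels say. The CD8 and CD3 genes were present in every library, with summed levels of 2139 to 2515 FPKM in WT and 2113 to 2667 FPKM in knockout. The summed level of 13 B cell markers was uneven within both groups: 935, 3132 and 3654 FPKM in WT replicates 1 to 3, and 688, 2974 and 618 FPKM in knockout replicates 1 to 3. The summed level of 18 proliferation genes lay between 1235 and 1771 FPKM in WT and between 327 and 466 FPKM in knockout, and all 18 were lower in knockout (edgeR, adjusted p under 0.05). The summed level of 13 dendritic and myeloid markers, of which Clec9a was listed in no library, ran from 53.58 to 72.29 FPKM in WT and from 35.72 to 43.67 FPKM in knockout. Of the 7 that were tested 3 were lower in knockout and none was higher (edgeR, adjusted p under 0.05). Lyz2, the most abundant of them, stood at 19.31 to 28.18 FPKM in WT and 26.54 to 29.97 FPKM in knockout. Of 7 gamma delta T cell markers only 3 were listed (Sox13, Cd163l1 and 5830411N06Rik) and no gene of the T cell receptor was among them. Their summed level was 9.37 to 15.34 FPKM in WT and 44.18 to 66.31 FPKM in knockout. The higher sum came from Cd163l1 and 5830411N06Rik, while Sox13 was at 0.14 FPKM or less in every library. The part of these shifts in the members' values was not tested, apart from that of the B cell markers, for which a fit with their level as a covariate was made. In such bulk samples fewer cells of a type and less RNA per cell cannot be told apart.

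The p53 protein binds a pair of decamers that may be separated by a spacer of 0 to 13 bases. Promoter windows from RefSeq (GRCm38.p6, the assembly of mm10), from 250 bases before to 50 bases after a start site, were at hand for 25 members. The search used the p53 response element consensus on both strands, which read alike because the consensus is palindromic, allowing up to 2 mismatches with the central C and G of each decamer kept. Of the 25 members 4 held a match (16%, exact 95% interval 4.54 to 36.1%), against 4.71% of the 27025 genes in the same table. These are shown because their windows hold letters close to the consensus; neither p53 binding nor p53 activity was measured. Rps27l and Sesn1 have a window at another start site too, with no match. The matches of both lie inside the annotated gene, downstream of its first base (66944624 for Rps27l and 41810574 for Sesn1). Capitals mark the matched decamers, each sequence is given 5′ to 3′ on the gene's own strand, and lower case is flanking sequence or spacer.

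Rps27l, chr9:66946281-66946330, plus strand, 1 mismatch, first base at position -117 from the start site: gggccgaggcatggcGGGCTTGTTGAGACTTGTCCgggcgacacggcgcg
Ccng1, chr11:40755447-40755496, minus strand, 1 mismatch, first base at position -195 from the start site: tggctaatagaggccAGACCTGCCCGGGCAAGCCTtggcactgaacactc
Gadd45a, chr6:67037423-67037478, minus strand, 2 mismatches and a spacer of 6 bases, first base at position -56 from the start site: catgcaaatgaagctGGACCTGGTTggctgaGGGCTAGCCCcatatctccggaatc
Sesn1, chr10:41887238-41887290, plus strand, 2 mismatches and a spacer of 3 bases, first base at position -186 from the start site: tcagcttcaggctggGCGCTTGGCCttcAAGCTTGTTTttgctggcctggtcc

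A match of letters is a description of the window and does not show that p53 was bound. Many p53 sites lie in introns or farther upstream, outside this window, so the 21 members without a match are not set apart by it. Of the 4 genes with a match, Rps27l fell in the knockout libraries. Ccng1, Gadd45a and Sesn1 had log2 fold changes of -0.39, -0.35 and 0.22 and did not pass the threshold (edgeR adjusted p = 0.089, 0.519 and 0.269).

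The p53 pathway members did not move as a block. Of the 31 tested, 1 was higher in knockout (Tnfrsf10b) and 3 were lower (Rps27l, Ddit4 and Apaf1), 12.9% in all. Of all 10890 genes tested 11.9% were called, 3.14% as higher and 8.77% as lower, so the share among the members is close to the background. Of the 31 members 15 had a log2 fold change above 0 and 16 below 0, with a median of -0.08, against 0.01 over all genes tested. Among the called members Rps27l changed most, falling 2.57-fold, and its call held in each of the 6 fits that left out 1 library.

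**Figure D1:**
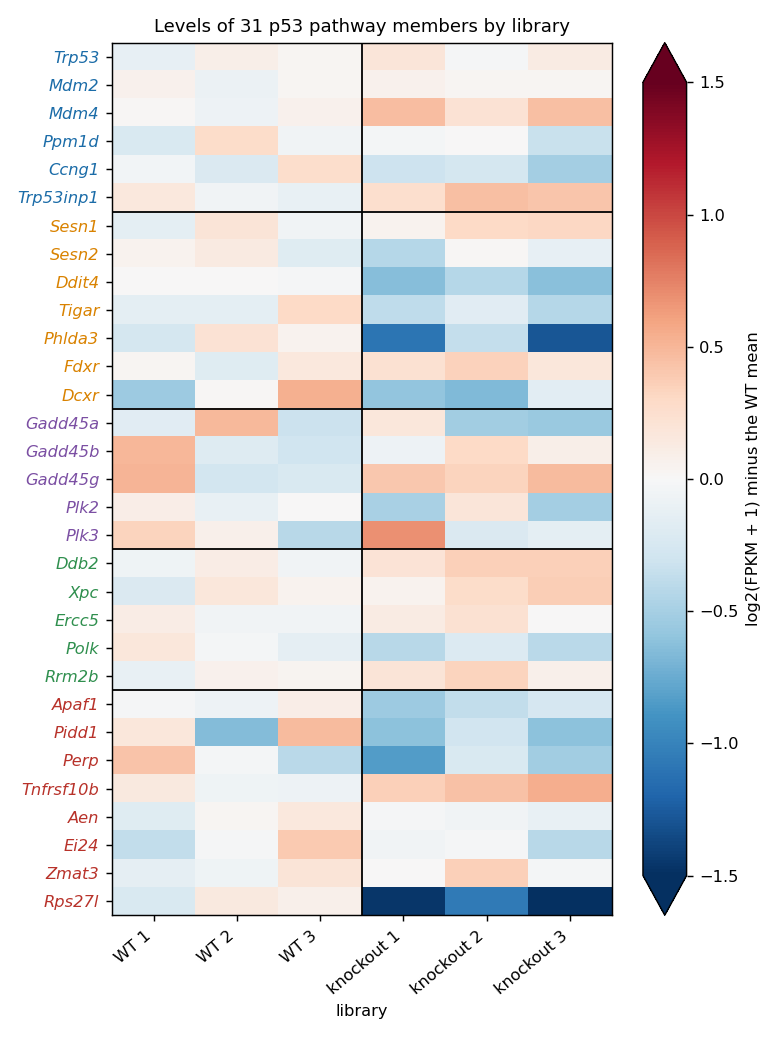
Levels of the 31 tested members in each library (columns), as log2(FPKM + 1) minus the WT mean of that gene, with red above and blue below it. Row labels are coloured by role, in the order p53 and its regulators, growth and metabolism, growth arrest, DNA repair and cell death. Rps27l is blue in all 3 knockout libraries, while Gadd45a and Plk3 hold both colours among the knockout libraries.

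Without a test, the FPKM values of the groups did not overlap for 6 members that were higher in knockout (19.4%, against 15.3% of all genes tested) and 7 that were lower (22.6%, against 16.8%). The higher ones were Mdm4, Trp53inp1, Fdxr, Ddb2, Rrm2b and Tnfrsf10b, and the lower ones Ccng1, Ddit4, Tigar, Phlda3, Polk, Apaf1 and Rps27l. Of these 13 genes, 9 did not pass the threshold, with adjusted p between 0.0606 and 0.364. Apart from Phlda3 and Rps27l, every tested member had a log2 fold change between -0.84 and 0.44.

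**Figure D2:**
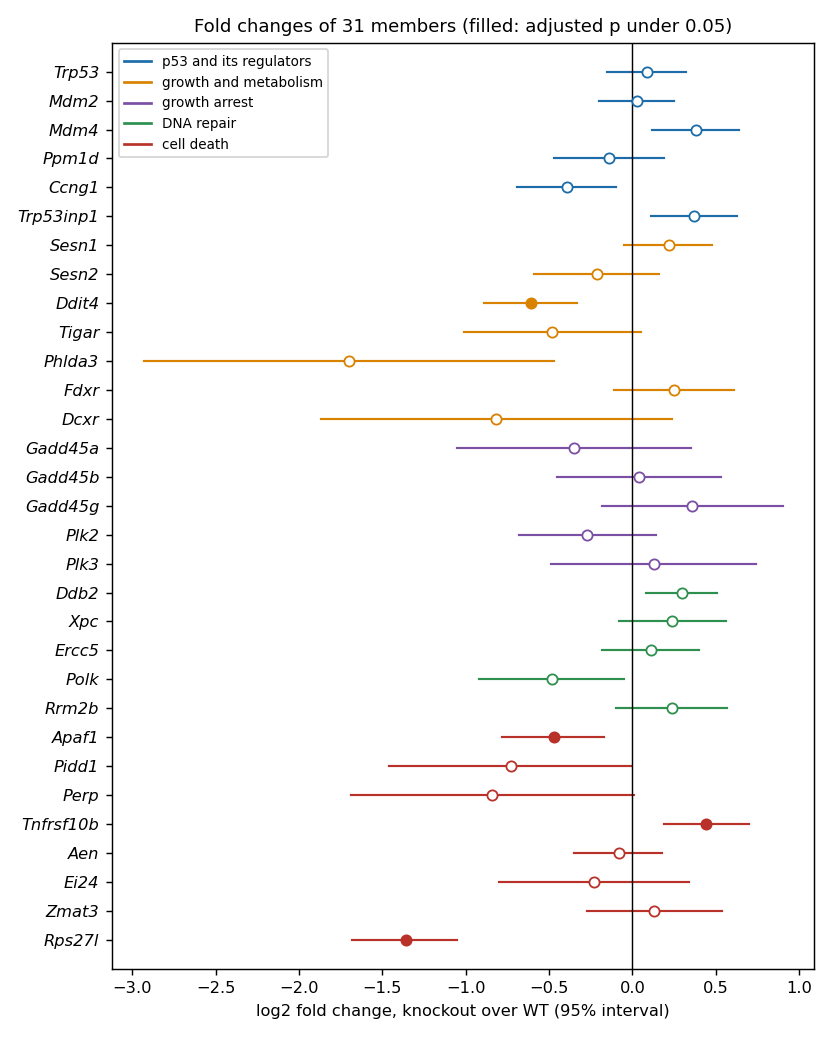
Log2 fold change (knockout over WT) of each tested member with its 95% interval from the edgeR fit, coloured by role; filled points passed an adjusted p of 0.05. Filled points are Ddit4, Apaf1, Tnfrsf10b and Rps27l, and the widest interval is that of Phlda3, from -2.93 to -0.47.

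None of the 6 genes of the group of p53 and its regulators passed with edgeR, and DESeq2 called 2 of them, Mdm4 and Trp53inp1. Of all 10890 genes tested edgeR called 11.9%, and DESeq2 called 494 as higher and 1069 as lower. With edgeR 3 of the 6 had an unadjusted p under 0.05, as did 3001 of all 10890 genes tested. Trp53 stood at 146.32, 168.46 and 162.54 FPKM in WT and 180.91, 156.74 and 173.52 FPKM in knockout. The groups overlapped, the log2 fold change was 0.09 (SE 0.1, adjusted p = 0.642), and its 95% interval ran from -0.15 to 0.32. In WT, Trp53 and Rps27l were the most abundant members, at means of 159 and 162 FPKM, and all other members were at 44.4 FPKM or less. The start of Trp53 lies close to that of Wrap53, which is transcribed from the opposite strand. No source used here says if reads were counted by strand.

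Mdm2, the main ubiquitin ligase of p53 and itself a p53 target, had the log2 fold change nearest to 0. It held 38.69, 34.49 and 37.46 FPKM in WT and 38.58, 37.46 and 37.7 FPKM in knockout, with a log2 fold change of 0.03 and an interval of -0.2 to 0.25 (adjusted p = 0.899). Ppm1d, the phosphatase WIP1, which removes activating phosphates from p53 and ATM, stood at 17.6 ± 3.35 and 16.1 ± 2.1 FPKM (mean ± SD, n = 3, WT and then knockout; adjusted p = 0.579).

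Mdm4, a relative of MDM2 that masks the transactivation domain of p53, was somewhat higher in every knockout library. Its values were 21.92, 20.42 and 22.74 FPKM in WT and 30.26, 25.36 and 29.94 FPKM in knockout, without overlap. The log2 fold change of 0.38 (SE 0.12) missed the threshold (adjusted p = 0.0606). It passed with DESeq2 (adjusted p = 0.0237), without the filter on low levels (0.0473) and without knockout replicate 2 (0.0141).

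Trp53inp1, a stress protein that promotes p53 phosphorylation and autophagy, was the other gene of this group whose knockout values all lay above those of WT. It held 24.69, 21.12 and 20.33 FPKM in WT and 26.35, 30.35 and 29.71 FPKM in knockout. Every knockout library was above every WT library (log2 fold change 0.37, adjusted p = 0.072). It passed with DESeq2 (adjusted p = 0.0402) and without WT replicate 1 (0.0225), the WT library in which it was highest. Ccng1, cyclin G1, which recruits a phosphatase to MDM2, went the other way. Its levels were 42.69, 37.72 and 52.79 FPKM in WT and 35.35, 36.51 and 30.63 FPKM in knockout. The groups did not overlap, yet WT replicate 2 lay close to the knockout libraries, and the difference passed without that library only (log2 fold change -0.51, adjusted p = 0.0367).

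Among the genes of growth control and metabolism Ddit4 fell. Ddit4 encodes REDD1, an inhibitor of mTORC1, and lies on chromosome 10 from 59949675 to 59951770 (mm10). Its level was 21.62, 21.76 and 21.4 FPKM in WT, against 13.55, 15.84 and 13.58 FPKM in knockout. The WT values were nearly identical and every knockout value was below them. The log2 fold change was -0.61 (SE 0.12, adjusted p = 0.0114), a 1.52-fold fall, and without knockout replicate 3 the call ended (-0.57, adjusted p = 0.0698).

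Sestrins bind the leucine-sensing machinery and restrain mTORC1, as REDD1 does by another route. Sesn1 stood at 22.1 ± 2.92 FPKM in WT and 25.9 ± 2.63 FPKM in knockout, and Sesn2 at 9.72 ± 1.19 and 8.49 ± 1.45 FPKM. Their groups overlapped and neither passed (adjusted p = 0.269 and 0.456). Tigar, whose enzyme lowers fructose-2,6-bisphosphate and so slows glycolysis, was at 2.62, 2.62 and 3.92 FPKM in WT and 2.07, 2.57 and 1.99 FPKM in knockout. Its groups just failed to overlap and the interval of the log2 fold change ran from -1.01 to 0.05.

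Phlda3, which encodes a small protein that competes with Akt for membrane lipids, had the lowest fold change of all members but few reads. It held 17, 29 and 24 expected counts in WT and 4, 14 and 2 in knockout, or 1.37, 2.31 and 1.96 FPKM against 0.34, 1.23 and 0.17 FPKM. Knockout replicate 2 lay apart from the other knockout libraries and near WT replicate 1. The log2 fold change was -1.7 (SE 0.55, adjusted p = 0.0772), and without knockout replicate 2 it was -2.8 (adjusted p = 0.00825). Of the knockout libraries it had the highest summed level of the B cell markers (2974 FPKM) and also of the proliferation genes (466 FPKM). With the B cell covariate the log2 fold change of Phlda3 was -1.24 (edgeR adjusted p = 0.13). The part of B cell or proliferation transcripts in single libraries was not tested.

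Fdxr, the mitochondrial ferredoxin reductase, and Dcxr, a carbonyl reductase, did not pass. Fdxr stood at 9.71, 8.26 and 10.71 FPKM in WT and 11.27, 12.39 and 10.78 FPKM in knockout, with the lowest knockout library only just above the highest WT library (adjusted p = 0.364). Dcxr varied from 1.19 to 3.61 FPKM within WT, a spread larger than the difference between the group means of 2.34 and 1.33 FPKM (adjusted p = 0.303). It had few reads, with 7 to 27 expected counts a library.

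Most of the growth arrest genes were uneven within at least 1 group. The median coefficient of variation was 33.1% in WT and 31.1% in knockout, against 12.4% and 12.3% over all genes tested. The exceptions were Plk2 in WT (7.73%) and Gadd45g in knockout (4.81%), which were below those medians, and Gadd45b in knockout (13.6%), which was close to them. None of the 5 passed with edgeR or DESeq2, and all had overlapping groups. Of all genes tested edgeR called 11.9%, and the groups did not overlap for 15.3% (higher in knockout) and 16.8% (lower). With 5 genes nothing is called particular to the group. With edgeR none had an unadjusted p under 0.05, which 3001 of the 10890 genes tested had. The GADD45 proteins bind PCNA and an upstream kinase of p38, and Plk2 and Plk3 encode polo-like kinases induced by stress.

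Gadd45b held 53.9, 32.82 and 30.41 FPKM in WT and 35.69, 46.78 and 40.27 FPKM in knockout. Gadd45g held 21.48, 12.03 and 12.54 FPKM in WT and 19.97, 19.02 and 20.94 FPKM in knockout. In both genes WT replicate 1 was higher than every other library, and the other 2 WT libraries were below all knockout libraries. Without WT replicate 1 the log2 fold change of Gadd45g rose from 0.36 to 0.72 and passed (adjusted p = 0.0391), while Gadd45b did not pass (0.122). Pmaip1, the gene of the apoptosis inducer NOXA and not a member, had its highest value in the same library (55.59 FPKM, against 22.81 to 34.99 FPKM in the other 5).

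Gadd45a, the classic p53 target of the family and a gene with a p53 consensus match in its promoter, stood at 7.68, 12.72 and 6.85 FPKM in WT. The knockout libraries held 10.02, 5.79 and 5.64 FPKM. The groups overlapped, with an interval of the log2 fold change from -1.05 to 0.35.

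Plk2 was at 20.12, 17.23 and 18.73 FPKM in WT and 13, 21.37 and 12.81 FPKM in knockout. Knockout replicates 1 and 3 were below all WT libraries and knockout replicate 2 was above them, so that leaving it out gave a fall (log2 fold change -0.53, adjusted p = 0.0295) where all 6 libraries gave none (-0.27, adjusted p = 0.379). Knockout replicate 2 had the highest B cell marker level (2974 FPKM) and the highest proliferation level (466 FPKM) of the knockout libraries. WT replicate 1, with the highest Plk2 level in WT, had the lowest B cell marker level of the WT libraries (935 FPKM). With the B cell covariate the log2 value was -0.18 (adjusted p = 0.586), and the part of B cell or proliferation transcripts in single libraries was not tested. Plk3 ranged from 17.11 to 29.41 FPKM in WT and from 19.71 to 37.84 FPKM in knockout (adjusted p = 0.805).

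None of the 5 DNA repair members passed with edgeR or DESeq2, where edgeR called 11.9% of all genes tested. With edgeR 2 of the 5 had an unadjusted p under 0.05, beside 3001 of the 10890 genes tested. Ddb2 and Xpc encode the damage sensors of nucleotide excision repair, the pathway that removes bulky and platinum adducts. Ddb2 held 38.17, 43.09 and 38.41 FPKM in WT and 46.23, 51.28 and 51.12 FPKM in knockout. Every knockout library was above every WT library, by a log2 fold change of 0.3 (SE 0.1, interval 0.08 to 0.51) that missed the threshold (adjusted p = 0.0773), and no fit without 1 library called it. Xpc stood at 8.27 ± 1.21 and 9.85 ± 1.2 FPKM (adjusted p = 0.322).

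Ercc5, the XPG endonuclease that cuts beside the adduct, stood at 8.19 ± 0.601 FPKM in WT and 8.97 ± 0.785 FPKM in knockout, with an interval of -0.18 to 0.4. Rrm2b, the p53-induced subunit of ribonucleotide reductase that supplies nucleotides for repair, was at 3.69, 4.29 and 4.2 FPKM and 4.8, 5.36 and 4.33 FPKM (adjusted p = 0.345). Polk, a polymerase that copies past lesions, was the repair gene with lower values, at 4.13, 3.47 and 3.18 FPKM in WT and 2.43, 2.96 and 2.45 FPKM in knockout. Its log2 fold change of -0.48 had an unadjusted p of 0.0332 and an adjusted p of 0.142.

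Of the 8 tested members linked to cell death 2 fell and 1 rose, 37.5% in all, beside 11.9% of all genes tested; with so few genes nothing is called particular to the group. Rps27l encodes a ribosomal protein S27-like factor that binds MDM2, and lies on chromosome 9 from 66944624 to 66949522 (mm10). It reached 137.36, 177.96 and 169.75 FPKM in WT and 57.98, 76.76 and 55.21 FPKM in knockout. The highest knockout library was well under the lowest WT library, and the log2 fold change was -1.36 (SE 0.14, adjusted p = 0.000394). It ran from -1.5 to -1.27 when 1 library was left out, with an adjusted p of at most 0.0049.

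Rps27l has a close relative, Rps27, a gene of the ribosome itself, and reads that match both can be divided between them. The expected counts of Rps27l were whole numbers in all 6 libraries (570, 749 and 696 in WT, 230, 294 and 212 in knockout), while those of Rps27 were fractional in knockout replicates 2 and 3. Whole counts do not tell how reads that match both genes were assigned. The mean of Rps27 was 6927 ± 1191 FPKM in WT and 8639 ± 736 FPKM in knockout, a log2 fold change of 0.31 (adjusted p = 0.164). The Rps27l level is uncertain to the extent that whole reads were assigned to the wrong gene of the pair, which was not tested.

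Apaf1, the scaffold of the apoptosome that activates caspase-9, is on chromosome 10 from 90989311 to 91082743. It held 6.06, 5.79 and 6.66 FPKM in WT and 3.9, 4.56 and 5.02 FPKM in knockout, without overlap. The log2 fold change of -0.47 (SE 0.14) passed by a narrow margin (adjusted p = 0.0495), and the call ended in all 6 fits that left out 1 library, with log2 fold changes from -0.56 to -0.38 and adjusted p from 0.0604 to 0.165. It ended also with limma, with DESeq2 size factors, without the filter on low levels and with the B cell covariate.

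Tnfrsf10b, the death receptor for TRAIL, rose. It lies on chromosome 14 from 69767472 to 69784411 and held 30.41, 26.25 and 26 FPKM in WT and 35.35, 37.77 and 40.43 FPKM in knockout. Its expected counts were fractional in all 6 libraries (696.29 to 822.28 in WT and 910.51 to 1010.19 in knockout). The part of reads shared with other genes was not tested. Each knockout library was above each WT library, and the log2 fold change was 0.44 (SE 0.11, adjusted p = 0.0328), a 1.36-fold rise. The call ended without WT replicate 2 or 3 (adjusted p = 0.107 and 0.128) or knockout replicate 1 or 3 (0.0575 and 0.141), with limma (0.0558) and with the B cell covariate (0.0696).

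**Figure D3:**
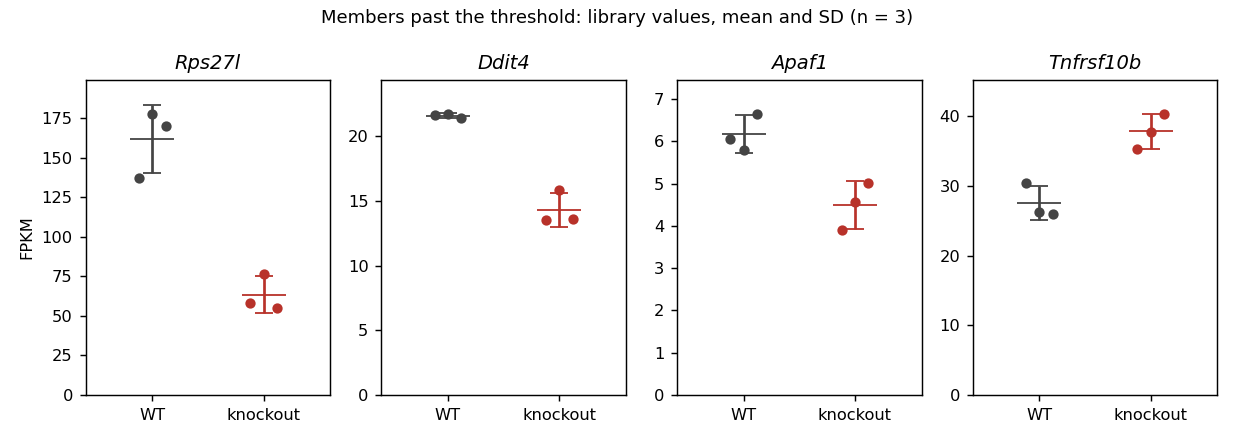
FPKM of the 4 called members in each library (points), with the mean and SD of each group of 3 (bars); axes start at 0. Rps27l, Ddit4 and Apaf1 are lower in all knockout libraries and Tnfrsf10b is higher in all of them.

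Pidd1, which assembles the caspase-2 platform, and Perp, a membrane protein of p53-driven apoptosis, had low levels and lower means in knockout. Pidd1 held 5.63, 2.74 and 7.17 FPKM in WT and 2.83, 3.83 and 2.83 FPKM in knockout, and WT replicate 2 was the lowest of all libraries. It passed only without that library (log2 fold change -1.05, adjusted p = 0.0205, against -0.73 and 0.178 in all 6). Perp held 3.95, 2.6 and 1.77 FPKM and 1.05, 2.12 and 1.56 FPKM (adjusted p = 0.186).

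The nuclease gene Aen, the reticulum protein gene Ei24 and Zmat3, which encodes an RNA-binding zinc finger protein, all overlapped between the groups. Their means were 17.3, 5.73 and 2.6 FPKM in WT and 16.5, 4.93 and 2.89 FPKM in knockout. Their log2 fold changes of -0.08, -0.23 and 0.13 had adjusted p of 0.698, 0.607 and 0.689.

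**Figure D4:**
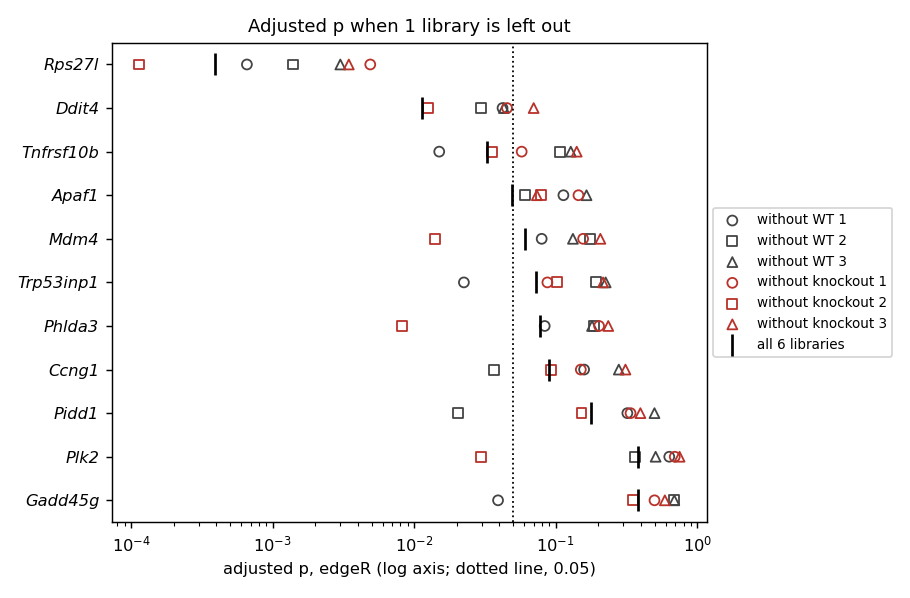
Adjusted p of the 11 members called in at least 1 of the 7 edgeR fits, with all 6 libraries (black bars) and without 1 library each (symbols; grey for WT and red for knockout), on a log axis with the threshold of 0.05 dotted. Rps27l is left of the line in every fit, Ddit4 in all but the fit without knockout replicate 3, and Apaf1 only with all libraries.

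The rest of the pathway was read from 55 further genes, 28 other p53 targets and 27 genes that control p53. Of these 43 were tested and 10 were under the minimum level. No library held a value for 2, Trp63 and Tnfrsf10a, and the symbol Tnfrsf10a matched no mouse gene number. By edgeR 3 of the 43 tested genes were higher and 7 lower, 23.3% against the 11.9% of all genes. The median log2 fold change of the 43 was -0.02. Nothing is called particular to this list from that share.

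Cdkn1a, the gene of the cell cycle inhibitor p21 and the best-known p53 target, had the largest fall of the 43 genes. It held 45.9, 51.32 and 74.5 FPKM in WT and 4.97, 8.82 and 4.04 FPKM in knockout, with no overlap (log2 fold change -3.28, SE 0.27, adjusted p = 0.000125). Other target genes that fell were Pcna, the replication clamp gene (log2 fold change -0.98), the mitotic spindle genes Ckap2 (-2.25) and Gtse1 (-2.24), and the kinase gene Dyrk3 (-3.11), whose call ended with limma at a pseudocount of 0.1 (adjusted p = 0.0585). Sesn3, the third sestrin gene, rose from 20.2 ± 0.335 to 31.9 ± 4.69 FPKM (log2 fold change 0.65, adjusted p = 0.0123), which its relatives Sesn1 and Sesn2 above did not; the difference between the sestrins was not tested. Its call ended without WT replicate 3 or knockout replicate 3 (adjusted p = 0.0548 and 0.0616).

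The apoptosis gene Bax stood at 182 ± 15.4 FPKM in WT and 145 ± 3.08 FPKM in knockout, which missed the threshold (log2 fold change -0.33, adjusted p = 0.0537; DESeq2 0.0462). The other death genes Bbc3, Pmaip1 and Fas had log2 fold changes of 0.27, -0.12 and 0.02 and did not pass. The 18 proliferation genes, given above, were lower in the same libraries as Cdkn1a, Pcna, Ckap2 and Gtse1; their part in those falls was not tested.

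Of the genes that control p53, the damage kinase genes Atm and Prkdc rose and Chek1 and Rfwd3 fell. Atm went from 5.07 ± 0.427 to 6.9 ± 0.586 FPKM (log2 fold change 0.43, adjusted p = 0.0374), a call that held only without knockout replicate 2 among the 6 fits of 5 libraries (adjusted p 0.0611 to 0.163 in the others). The Atm call ended also with limma (0.0841 with a pseudocount of 1 and 0.0833 with 0.1) and with the B cell covariate (0.094). Prkdc, the catalytic subunit of DNA-PK, went from 4.95 ± 0.556 to 7.37 ± 1.1 FPKM (0.56, adjusted p = 0.0173), and was lost without WT replicate 2 (0.0604) or knockout replicate 3 (0.0758) and with limma (0.0738 and 0.0842 at the same pseudocounts). Chek1, the checkpoint kinase downstream of ATR, fell from 3.46 ± 1.06 to 1.1 ± 0.739 FPKM (-1.69, adjusted p = 0.0255), a call absent from the fits without WT replicates 2 and 3 (0.0515 and 0.112) and without knockout replicates 1 and 3 (0.0794 and 0.119) and from limma with a pseudocount of 0.1 (0.0749). Rfwd3, a ubiquitin ligase, fell from 22.6 ± 3.01 to 13.9 ± 3.16 FPKM (-0.72, adjusted p = 0.0125), a call that ended without WT replicate 3 (0.0606) or knockout replicate 1 (0.0545) or 3 (0.0751) and with limma (0.0565 and 0.0804).

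**Figure D5:**
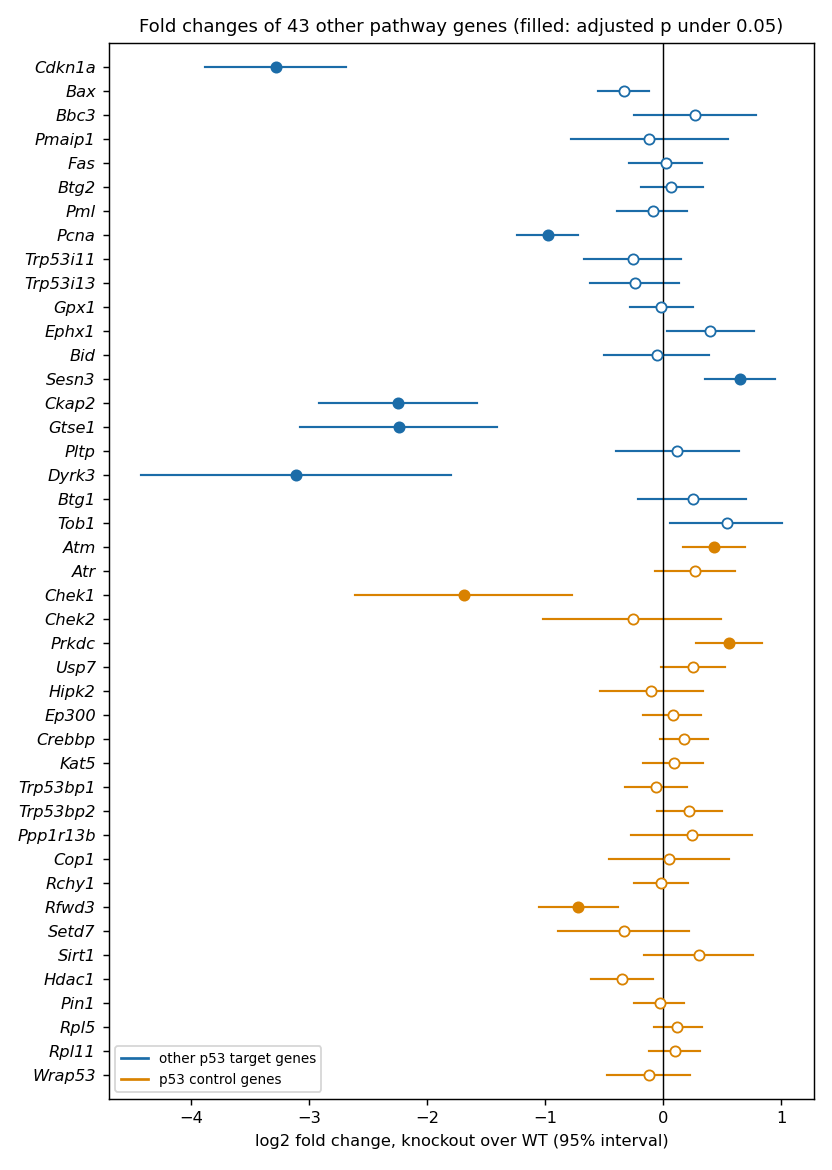
Log2 fold change (knockout over WT) with its 95% interval for the 43 tested genes of the wider pathway, other p53 targets in blue and genes that control p53 in orange; filled points passed an adjusted p of 0.05. The filled points are Cdkn1a, Pcna, Ckap2, Gtse1, Dyrk3, Chek1 and Rfwd3 below 0 and Sesn3, Atm and Prkdc above it.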

How the data were processed

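The authors deposited 1 table per library with expected counts and FPKM per gene, per the file headers. CASAVA, Bowtie2, RSEM and mm10 are listed, without versions, in the submitters' processing notes. Between 25 and 26.2% of a library's deposited expected counts were not whole; all were rounded to whole numbers. Genes that a library did not list were set to 0 in it. Of 16749 gene numbers 16707 had a RefSeq symbol.

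After TMM scaling, edgeR 4.0.16 under R 4.3.3 ran its quasi-likelihood test (two-sided) for the 10890 genes having at least 1 FPKM in at least 3 libraries, with Benjamini-Hochberg adjustment over all of them and a threshold of 0.05. Each SE is the size of the log2 fold change over the square root of F, and intervals use the t quantile of the fit. The biological coefficient of variation was 0.156. The fit was tested on simulated data.

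The rule names all 32 members, and of the wider list up to 8 called genes by p, with Cdkn1a, Bax, Atm and Chek1. Bbc3, Pmaip1, Fas and Rps27 were named after their values were seen. Members and lists were chosen with earlier results of these data known. Alternatives were DESeq2 1.42.0, its size factors, limma 3.58.1 on log2(FPKM + 1) or log2(FPKM + 0.1), no filter or a minimum of 5 FPKM, the replicate block, a B cell covariate and each library left out. Marker levels are sums of FPKM. No 2 libraries of a group were duplicates (chi-square over degrees of freedom from 5.63 to 18.6). Binomial intervals of promoter shares are exact (Clopper-Pearson). Figures were drawn with matplotlib 3.10.9.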

Additional observations from a re-analysis of the deposited data

How the results depend on the processing

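The number of members called higher (1) was 3 with DESeq2, 2 without the filter, and 0 with limma at either pseudocount or with the B cell covariate, and 0 to 3 without 1 library (0 when WT replicate 2, WT replicate 3, knockout replicate 1 or knockout replicate 3 was left out). With an unadjusted p under 0.05, 4 members were higher in edgeR, DESeq2, both limma fits and the covariate fit, and 4 to 6 without 1 library. In edgeR with all libraries 3001 of the 10890 genes tested had such a p, in either direction. Members called lower (3) numbered 1 to 4 without 1 library (1 without knockout replicate 3). The wider genes called higher (3) were 1 with limma at either pseudocount and 0 to 5 without 1 library (0 without knockout replicate 3, where 3 had an unadjusted p under 0.05), and those lower (7) were 4 with limma at the pseudocount of 0.1. The counts over all genes moved as well. The 342 higher and 955 lower became 494 and 1069 with DESeq2, and 429 and 1122 without the filter (16693 genes tested). They were 229 and 735 with limma at the pseudocount of 1, and 162 and 605 at 0.1. With the B cell covariate they were 297 and 909, and without 1 library 84 to 480 and 517 to 1082. The members' median (-0.08) was 0.05 with a minimum of 5 FPKM, where 23 members were tested, and -0.14 to -0.03 without 1 library. Promoter matches (4 members, 16% against 4.71% of genes) were 2 with up to 1 mismatch (8% against 0.718%) and 2 with no spacer (8% against 0.392%). Of 426 member fits under alternatives, 383 kept direction and side of the threshold, 21 lost and 11 gained a call, and 11 turned sign, none of them called: Mdm2 (-0.04 with the B cell covariate and without WT replicate 2; -0.04 to 0.1 without 1 library), Gadd45b (-0.06 with the covariate; -0.12 to 0.39 without 1 library), Plk3 (-0.18; -0.25 to 0.36), Ei24 (-0.39 to 0.02 without 1 library) and Zmat3 (-0.02 to 0.27). The cause was not tested.

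Same-numbered libraries had correlations of deviations of 0.135, 0.0738 and -0.0705. WT replicate 1 correlated best with knockout replicate 3 (0.162), and the highest value was that of WT replicate 3 with knockout replicate 2 (0.181). With 3 libraries a group and uneven B cell marker levels, such values cannot show if the replicate numbers pair the libraries. With the replicate block 295 genes were higher and 888 lower. Among the members Mdm4 passed there (adjusted p = 0.0427), and Tnfrsf10b (0.0518) and Apaf1 (0.0568) did not. Depth limits Phlda3, with 2 to 29 expected counts a library, and also Dcxr (7 to 27) and Perp (16 to 63).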

Other observations

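E-boxes, the sites that E proteins bind, were counted in the same promoter windows, since Id2 restrains those factors. CAGCTG stood in 5 of the 25 members with a promoter in the table (20%, against 18.3% of 27025 genes) and CAGGTG, read on both strands, in 3 (12%, against 22.6%). Either was present in 8 members (32%, exact 95% interval 14.9 to 53.5%, against 35.9%). Those with CAGCTG were Ei24, Mdm2, Ppm1d, Gadd45g and Mdm4, and those with CAGGTG were Aen, Plk3 and Tigar. The called members Rps27l, Ddit4 and Apaf1 held neither in this window, which says nothing of sites elsewhere; the called member Tnfrsf10b was not in the promoter table.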
